A study of Mus musculus with 6 samples.

Results

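The contractile gene set of smooth muscle was followed in 6 whole prostate tumours, as 10 genes chosen by symbol among the 21718 genes of the count table. They encode the smooth muscle actins (Acta2, Actg2), myosin and its kinase (Myh11, Mylk), proteins that bind actin filaments (Tagln, Cnn1, Lmod1, Synpo2), the intermediate filament desmin (Des) and the transcriptional coactivator myocardin (Myocd). All 10 were measured and all 10 passed the filter on low counts.

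The tumours grew in Ptenpc-/- mice, a genetically engineered model of prostate cancer, and all had become castration-resistant. The F10-deleted group (3 samples, numbered 1, 3 and 4) received bone marrow from F10fl/fl donors that carried LysM-Cre, a Cre expressed in macrophages and granulocytes. The F10-intact group (3 samples, with the same numbers) received F10fl/fl marrow without Cre. F10 encodes coagulation factor X. Hosts of both groups received 900 rad of irradiation when 6 weeks old, were castrated when 8 weeks old and were sampled 16 weeks after castration. The Cre driver used in the hosts is not given in the sources used here, nor is the completeness of the F10 deletion. Whether the samples were separate animals is also unstated, and the p-values therefore measure only the spread between these samples.

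Smooth muscle contracts when calcium and calmodulin activate the myosin light chain kinase, which lets smooth muscle myosin pull on actin filaments anchored at dense bodies. In the prostate such cells sheathe the glands and the vessels, and receptors of noradrenaline and acetylcholine drive their contraction. Most contractile genes carry CArG boxes, the DNA element of serum response factor, whose coactivator myocardin holds the set on together.

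RefSeq promoter windows on GRCm38.p6, from 250 bases before to 50 bases after the annotated start, were found for 6 of the 10 genes (Acta2, Cnn1, Des, Lmod1, Mylk and Synpo2). Of these windows, 0 held a perfect CArG box, a motif found in 1.63% of all 32851 windows. With 1 G or C allowed in the 6-base A/T core, only Acta2 of the 6 had matches, and 8.499% of all windows had at least 1. Its matches were ccctatatgg, starting at -84, and ccttgtttgg, starting at -34, counted from the annotated start. The CATTCC element, bound by TEAD factors and searched on both strands, was in the windows of Acta2, Lmod1 and Mylk, and in 14.7% of all windows. None of these matches overlapped each other. The 3 windows with a match are shown, and capitals mark the matches. Lmod1 and Mylk held CATTCC only. Binding of any factor to these matches was not tested. The windows lie at chr19:34255324-34255623 (minus strand) for Acta2, chr1:135324563-135324862 (plus strand) for Lmod1 and chr16:34784700-34784999 (plus strand) for Mylk. The Mylk window lies inside the gene, whose annotated span begins at 34745210, and so covers an internal start. On the minus strand, the Acta2 window reaches only 34255623, which is 250 bases before its start. That start therefore also lies inside the annotated span of Acta2, which ends at 34255590, and the Acta2 positions above are counted from it.
Acta2: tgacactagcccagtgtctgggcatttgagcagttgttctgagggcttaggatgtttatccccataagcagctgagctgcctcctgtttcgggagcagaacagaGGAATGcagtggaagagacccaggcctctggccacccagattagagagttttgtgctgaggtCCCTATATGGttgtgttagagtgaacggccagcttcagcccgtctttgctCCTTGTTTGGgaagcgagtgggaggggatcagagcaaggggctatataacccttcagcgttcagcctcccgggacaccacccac
Lmod1: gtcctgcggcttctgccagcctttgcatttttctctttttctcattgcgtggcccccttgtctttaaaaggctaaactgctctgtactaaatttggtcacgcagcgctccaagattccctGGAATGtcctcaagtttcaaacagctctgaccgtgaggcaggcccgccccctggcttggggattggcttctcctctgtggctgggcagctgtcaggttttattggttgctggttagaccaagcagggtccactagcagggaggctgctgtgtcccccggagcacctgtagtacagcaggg
Mylk: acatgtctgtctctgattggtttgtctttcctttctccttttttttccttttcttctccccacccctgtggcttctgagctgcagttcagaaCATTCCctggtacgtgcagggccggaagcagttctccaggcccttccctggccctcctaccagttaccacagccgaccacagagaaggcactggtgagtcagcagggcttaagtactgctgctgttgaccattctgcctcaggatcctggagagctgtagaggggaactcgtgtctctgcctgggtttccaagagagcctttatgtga

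The libraries held 9237308 to 11821588 counts. F10 itself had 7, 4 and 9 counts in F10-deleted samples 1, 3 and 4, against 2, 6 and 17 counts in the F10-intact samples, with an edgeR log2 fold change of -0.38 (95% interval -2.17 to 1.41), and no difference could be detected from so few counts. The defining markers of smooth muscle were present in every tumour: the 10 genes together took 0.320%, 0.314% and 0.171% of all counts in F10-deleted samples 1, 3 and 4, against 0.425%, 0.261% and 0.0986% in the F10-intact samples. F10-intact samples 1 and 4 were the extremes, and the F10-deleted samples lay between them. In bulk tissue, fewer smooth muscle cells and less contractile RNA per cell cannot be told apart.

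No difference between the marrow groups passed the test for any contractile gene. By edgeR, 0 of 10 passed an adjusted p of 0.05, where 0.0439% of the 15963 genes tested did, and 0 of 10 had an unadjusted p under 0.05, where 10.9% of genes did. DESeq2 and limma-voom also called 0 of the 10, against 2.75% and 0.0125% of their genes. The log2 fold changes had a median of 0.03, beside -0.02 over all genes tested, and 5 of 10 were above 0, where 47.3% of genes were. Adjusted p-values lay between 0.807 and 0.999. For 0 of the 10 did the groups fail to overlap, where that held for 16.7% of genes.

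**Figure D1:**
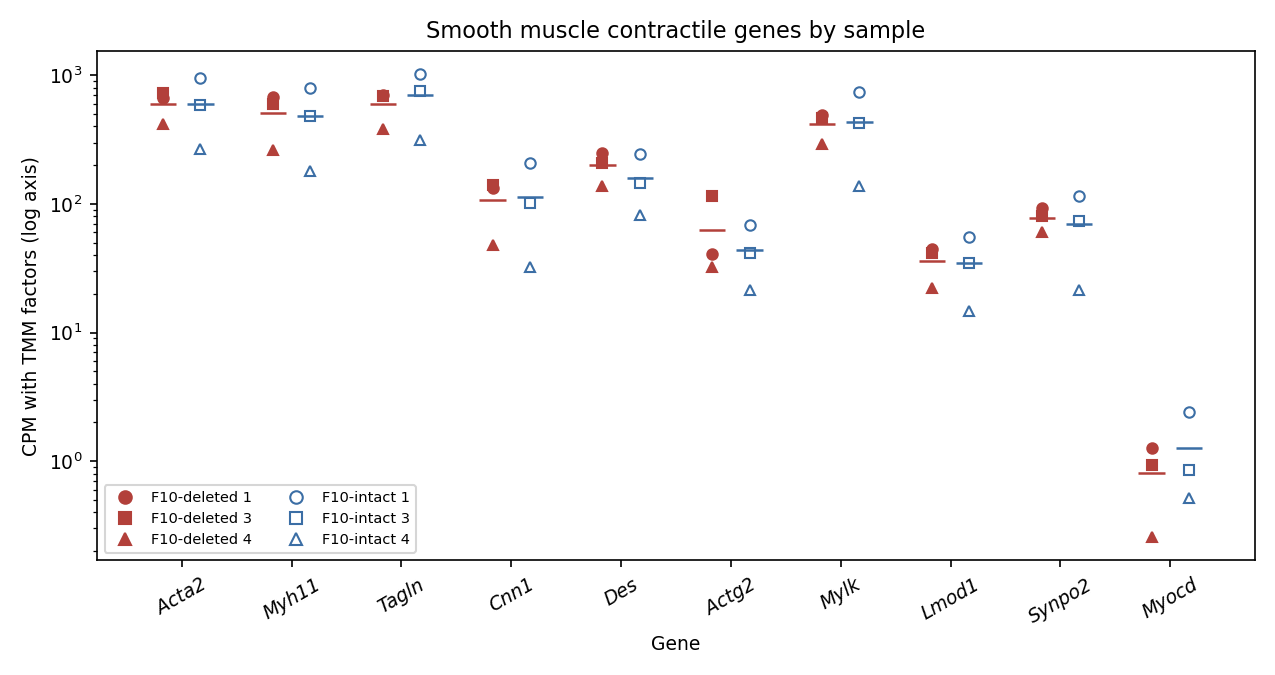
Level of each contractile gene in each sample, in CPM on a log axis. Filled red symbols are F10-deleted and open blue symbols F10-intact samples, symbol shapes give the sample number, and bars are group means (n = 3 each). Both groups share a range for every gene, and the number 4 samples (triangles) are the lowest of their group for all 10.

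The actins showed this plainly. Acta2, the alpha actin of vascular and most other smooth muscle (chromosome 19, 34241090 to 34255590, minus strand, GRCm38), had 662, 725 and 419 CPM (counts scaled to a common library size with TMM factors) in F10-deleted samples 1, 3 and 4, against 954, 590 and 266 CPM in the F10-intact samples. F10-intact sample 1 was highest, F10-intact sample 4 lowest, and the F10-deleted samples fell between. The means were 602 ± 162 and 603 ± 344 CPM (SD, n = 3 each), with a log2 fold change at -0.0020 ± 0.44 (SE, adjusted p = 0.999 by edgeR). Its sign changed with the scaling. The 95% interval spanned 0.486-fold to 2.05-fold, which includes a 2-fold change in both directions. Over the 10 genes, the intervals of 9 included a 2-fold higher and of 8 a 2-fold lower level.

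Actg2, the gamma actin of visceral smooth muscle such as that of gut and bladder (chromosome 6, 83512905 to 83536265, minus strand), had 41.2, 116 and 32.5 CPM in F10-deleted samples 1, 3 and 4, against 68.3, 41.7 and 21.4 CPM in the F10-intact samples. F10-deleted sample 3 stood above the other 5. The log2 fold change was 0.53 ± 0.58 (SE, adjusted p = 0.807 by edgeR), with an interval from 0.558-fold to 3.73-fold, and it was -0.22 without F10-deleted sample 3. The same sample held the most RNA of the urothelium, the bladder and urethral lining: the 6 urothelial markers (5 uroplakins and Krt20, a list chosen after their values were seen) summed to 329, 1585 and 357 CPM in F10-deleted samples 1, 3 and 4, against 388, 426 and 150 CPM in the F10-intact samples. All 6 were highest in F10-deleted sample 3, and none was at 0 in all samples. P2rx1, an ATP receptor of bladder muscle named here after its values were seen, had 3.78, 13.9 and 1.88 CPM in F10-deleted samples 1, 3 and 4, against 5.17, 2.91 and 5.08 CPM in the F10-intact samples. The acetylcholine receptors Chrm2 and Chrm3 did not peak in F10-deleted sample 3. Chrm3 was lowest there of all samples, at 6.60 CPM, and Chrm2 had 1.35 CPM there against 2.10 CPM in F10-deleted sample 1. The part of urothelial or bladder tissue in the Actg2 value was not tested.

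The ratio of Actg2 to Acta2 within a sample does not depend on library scaling. On the log2 scale it was -4.01, -2.64 and -3.69 in F10-deleted samples 1, 3 and 4, against -3.80, -3.82 and -3.63 in the F10-intact samples. Apart from F10-deleted sample 3, the samples kept the gamma form in a narrow proportion to the alpha form although both genes varied widely. The difference between the groups was 0.31, for which the exact permutation test (two-sided) gave p = 0.8, its lowest possible value being 0.1, and -0.09 without F10-deleted sample 3.

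Myh11, the smooth muscle myosin heavy chain and the most specific marker of the set (chromosome 16, 14194535 to 14291372, minus strand), had 679.9, 596 and 265 CPM in F10-deleted samples 1, 3 and 4, against 794, 480 and 181 CPM in the F10-intact samples. The groups overlapped, and the highest of the F10-intact samples had 4.38 times the level of the lowest. The log2 fold change was 0.08 ± 0.55 (SE, adjusted p = 0.977 by edgeR; 0.432-fold to 2.59-fold). Mylk, the myosin light chain kinase (chromosome 16, 34745210 to 35002420, plus strand), had 494, 466 and 294 CPM in F10-deleted samples 1, 3 and 4, against 743, 426 and 139 CPM in the F10-intact samples. The F10-deleted values were again enclosed by those of F10-intact samples 1 and 4, and the log2 fold change was -0.06 ± 0.54 (adjusted p = 0.982 by edgeR; 0.398-fold to 2.31-fold).

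Among the proteins that bind actin, Tagln (transgelin; chromosome 9, 45929619 to 45936058, minus strand) had 705, 692 and 385 CPM in F10-deleted samples 1, 3 and 4, against 1025, 749 and 317 CPM in the F10-intact samples. Cnn1, the calponin that restrains actomyosin (chromosome 9, 22099216 to 22109630, plus strand), had 132, 139 and 48.0 CPM in F10-deleted samples, against 207, 101 and 32.2 CPM in the F10-intact samples. Its 6.41-fold span among the F10-intact samples was the widest of the 10 genes in that group. Lmod1, a leiomodin that seeds actin filaments (chromosome 1, 135324807 to 135368065, plus strand), had 44.7, 41.9 and 22.3 CPM in F10-deleted samples, against 55.6, 34.5 and 14.7 CPM in the F10-intact samples. Synpo2, an actin-bundling protein (chromosome 3, 123076519 to 123236149, minus strand), had 92.3, 81.0 and 60.0 CPM in F10-deleted samples, against 116, 73.3 and 21.3 CPM in the F10-intact samples. None of these genes kept the same group order for all sample numbers. Tagln was higher in the F10-deleted sample only for number 4, and Cnn1, Lmod1 and Synpo2 for numbers 3 and 4. Their log2 fold changes were -0.23 for Tagln, -0.09 for Cnn1, 0.05 for Lmod1 and 0.15 for Synpo2, with edgeR adjusted p from 0.903 to 0.982.

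Des (chromosome 1, 75360329 to 75368579, plus strand), which striated muscle shares, had 251, 209 and 138 CPM in F10-deleted samples 1, 3 and 4, against 246, 146 and 82.5 CPM in the F10-intact samples. It was the only one of the 10 that was higher in the F10-deleted sample of all 3 numbers, by 0.03, 0.51 and 0.74 on the log2 scale. The test did not call it, with a log2 fold change of 0.33 ± 0.40 (SE, adjusted p = 0.826 by edgeR; 0.659-fold to 2.40-fold). The log2 ratio of Des to Myh11 was -1.44, -1.51 and -0.94 in F10-deleted samples 1, 3 and 4, against -1.69, -1.71 and -1.13 in the F10-intact samples. The ratio was higher in the F10-deleted sample of each number, by 0.25, 0.20 and 0.20. Its group difference of 0.22 gave p = 0.5 in the same exact permutation test, and an exact sign-flip test over the 3 numbers gave 0.25, the smallest it can give. Striated muscle markers are given beside it. For 19 of 19 measured, every F10-deleted sample lay above every F10-intact one, where the groups did not overlap for 16.7% of all genes tested, and they summed to 2516, 1065 and 2609 CPM in F10-deleted samples 1, 3 and 4, against 196, 54.9 and 20.01 CPM in the F10-intact samples. Of these, edgeR called 2, Mybpc2 and Myot (adjusted p = 0.0386 and 0.0476), and 0 with the sample number as a block. Leaving out 1 sample at a time gave 0 to 12 calls. Among the striated markers, Actc1 was at 0 in F10-intact sample 4 and Myh2 and Pvalb in F10-intact sample 3. The part of striated muscle in the Des values was not tested.

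**Figure D2:**
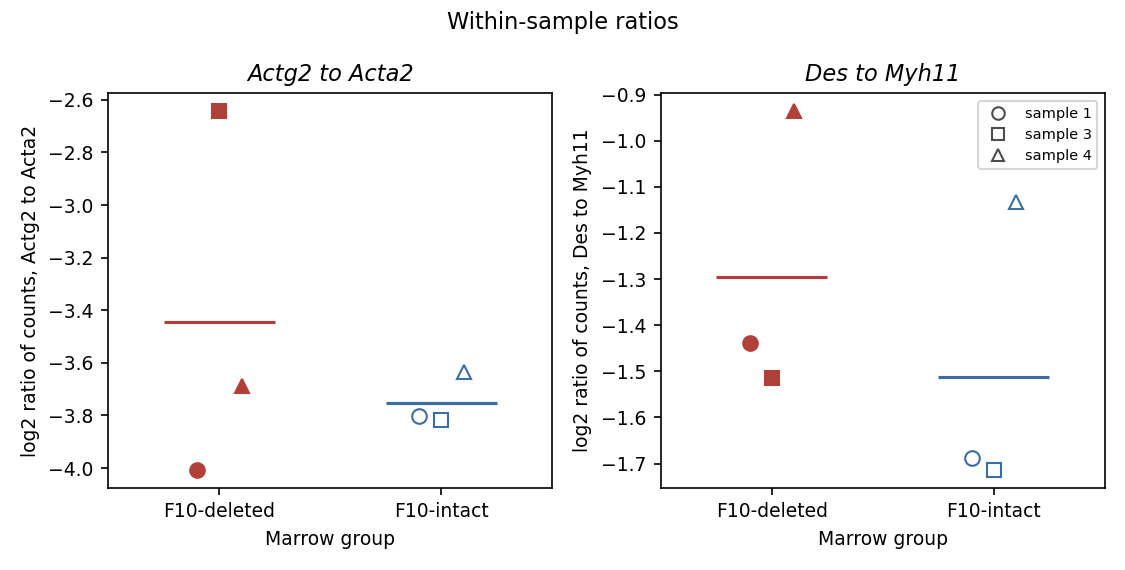
Log2 ratios of counts within each sample, for Actg2 to Acta2 (left) and Des to Myh11 (right). Symbols are samples by number, bars are group means (n = 3 each), F10-deleted samples stand left. In the left panel F10-deleted sample 3 is alone at -2.64, and in the right panel the number 4 samples are the highest of each group.

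Myocd (chromosome 11, 65176561 to 65269989, minus strand), the coactivator, was close to the detection limit, with 12, 11 and 3 counts in F10-deleted samples 1, 3 and 4, against 26, 10 and 5 counts in the F10-intact samples. It was lowest in sample 4 of each group, like the rest of the set, an order that 15.5% of all genes tested had and that rests here on few counts. Whether Myocd was linked to the levels of the other contractile genes was not tested. The log2 fold change was -0.65 ± 0.74 (SE, adjusted p = 0.813 by edgeR), with the widest interval of the 10 genes, from 0.194-fold to 2.10-fold. Srf, which myocardin binds and which is named outside the rule, had 24.7, 12.9 and 9.38 CPM in F10-deleted samples, against 18.2, 14.7 and 10.8 CPM in the F10-intact samples, with a log2 fold change at 0.10 (adjusted p = 0.954 by edgeR).

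Per kilobase of annotated exon, Tagln and Acta2 led the set, at 299 ± 91.0 and 274 ± 73.7 CPM per kb in the F10-deleted group and 351 ± 179.7 and 275 ± 157 CPM per kb in the F10-intact group (SD, n = 3 each). Tagln lay above Acta2 in every sample, most narrowly in F10-deleted sample 4, at 193.9 and 190.8 CPM per kb. The gap between the means of these genes was smaller than their SDs in either group. Myh11 followed at 67.6 ± 28.9 CPM per kb in the F10-deleted and 63.8 ± 40.3 CPM per kb in the F10-intact group. Des, Actg2, Cnn1 and Mylk had overlapping levels with group means between 28.1 and 53.1 CPM per kb. Lmod1 lay at 9.20 and 8.85 CPM per kb, Synpo2 at 5.94 and 5.36, and Myocd at 0.127 and 0.196 in the F10-deleted and F10-intact groups. The cytoplasmic beta actin Actb, made by all cells, stood at 842 ± 58.3 CPM per kb in the F10-deleted and 742 ± 66.3 CPM per kb in the F10-intact group, above both smooth muscle actins in every sample. The striated actins Acta1 and Actc1 were below Acta2 in every sample. Acta1, the skeletal form, had 122, 49.3 and 64.2 CPM per kb in F10-deleted samples 1, 3 and 4, against 5.53, 0.837 and 0.675 CPM per kb in the F10-intact samples. Its log2 fold change of 5.05 ± 0.76 (SE) did not pass (adjusted p = 0.103 by edgeR). No exact 120-base window of the longest transcript of any of the 10 genes occurred in a transcript of another gene, so exact matches do not mix the actins at the read length used. Annotated antisense genes overlap exons of Tagln, Des and Mylk; Gm48529, opposite Tagln, had 70 to 95 counts and Gm21691, opposite Mylk, 2 to 4.

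The 10 genes varied widely, and together, from sample to sample. In the F10-intact group, sample 1 was the highest and sample 4 the lowest for 10 of 10 genes, an order that 24.9% of all genes tested had. Sample 4 was the lowest of its group in both groups for 10 of 10, where 15.5% of genes were. The highest level was 1.54 to 4.93 times the lowest within the F10-deleted group, and 2.98 to 6.41 times within the F10-intact group. The median within-group SD was 0.84 log2 units for the 10 genes, beside 0.26 over all genes tested and 0.21 over genes with a mean of at least 10 CPM. Between pairs of the 10 genes, Pearson's r over the 6 samples had a median of 0.94, with the lowest at 0.54. Leaving out any 1 sample moved the median between 0.92 and 0.96, and leaving out both number 4 samples gave 0.88. These correlations share the same 6 libraries. The set stood at 0.37, 0.42 and -0.54 on the log2 scale, relative to the 6-sample mean, in F10-deleted samples 1, 3 and 4, against 0.83, 0.07 and -1.15 in the F10-intact samples. Mitochondrial transcripts were highest in the number 4 samples, at 3.14%, 3.23% and 4.58% of counts in F10-deleted samples 1, 3 and 4, against 2.45%, 3.23% and 5.75% in the F10-intact samples, and their part in this pattern was not tested.

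Same-numbered samples of the groups gave opposite differences. For number 1, 1 of 10 genes was higher in the F10-deleted sample (Des), with differences from -0.72 for Actg2 to 0.03 log2 units. For number 3, 9 of 10 were higher, with Tagln the exception at -0.12 and Actg2 the furthest at 1.46. For number 4, 9 of 10 were higher, with Myocd the exception at -0.43 and Synpo2 the furthest at 1.48. The combination of a lower value in pair 1 and a higher value in pair 4 held for 8 of 10 genes and for 21.9% of all genes tested. With the number as a block, edgeR gave 8 of 10 log2 fold changes above 0 and a median of 0.19, and again called 0 (lowest adjusted p = 0.339, for Des).

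**Figure D3:**
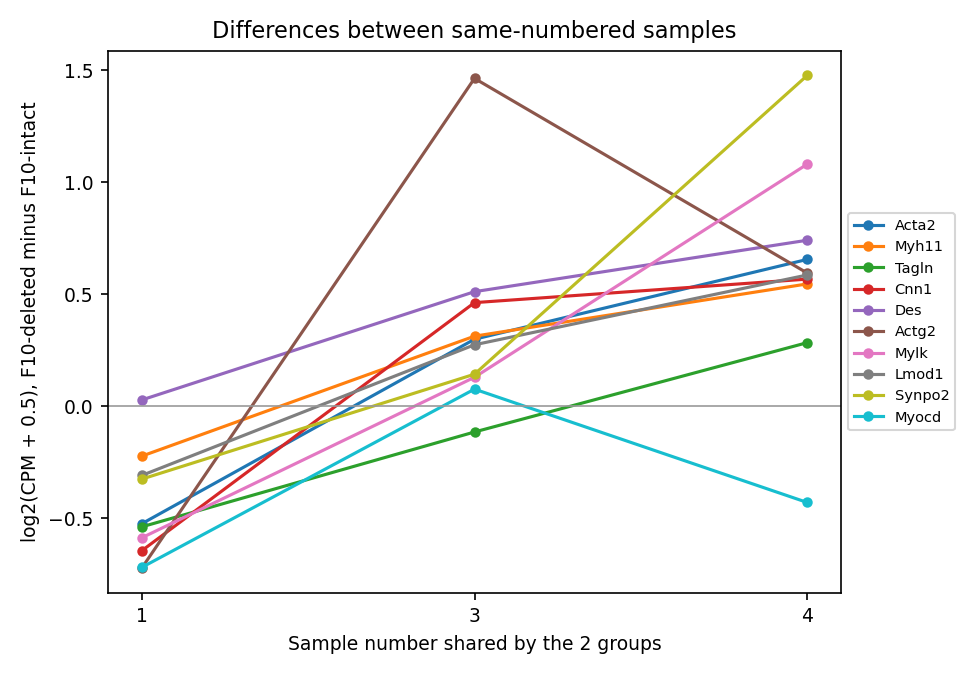
Difference in log2(CPM + 0.5) between the F10-deleted and the F10-intact sample of each number, 1 line per gene. Most genes lie below 0 for number 1 and above 0 for numbers 3 and 4.

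The direction of the group comparison changed with which sample was left out, in either group. Without F10-intact sample 1, all 10 log2 fold changes were above 0 and their median was 0.62. Without F10-intact sample 4, 2 of 10 were above 0 and the median was -0.34. Without F10-deleted sample 4, 9 of 10 were above 0, and without F10-deleted samples 1 and 3 the counts were 3 and 2. Without both number 4 samples, an alternative chosen after seeing the data, 3 of 10 were above 0, and without both number 1 samples 9 of 10 were. None of these fits called any of the 10.

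**Figure D4:**
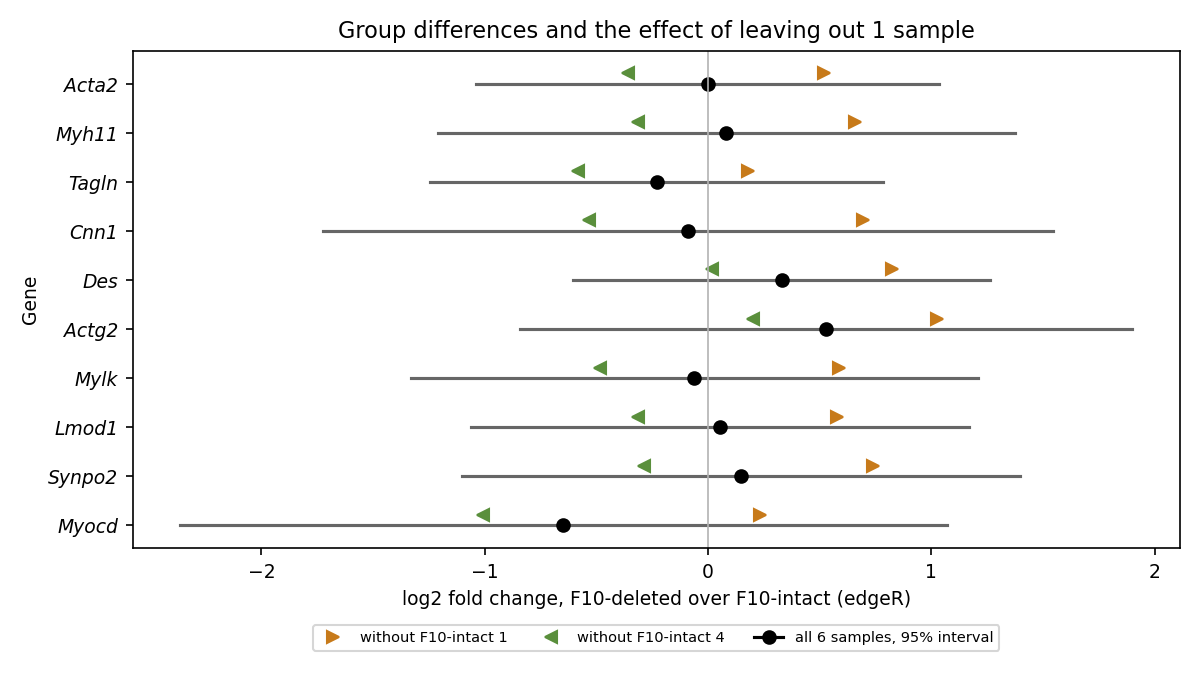
Log2 fold changes of the 10 genes, F10-deleted over F10-intact, with all 6 samples (black, bars are 95% intervals) and without F10-intact sample 1 or 4 (triangles). All 10 intervals cross 0, and the triangles fall on either side of the black points.

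Other parts of the contractile machinery were read from lists. Of 40 further contractile and cytoskeletal genes, edgeR called 0 (6 higher and 0 lower at an unadjusted p under 0.05), DESeq2 called 2 and limma-voom 0, and the median log2 fold change was 0.05. Myl9, the regulatory light chain of smooth muscle myosin, followed the set closely, with 207, 232 and 128 CPM in F10-deleted samples 1, 3 and 4, against 280.0, 186 and 96.6 CPM in the F10-intact samples. The genes with the smallest p were of another kind. Mylk4, a kinase related to Mylk that is known from striated muscle, had 9.14, 5.08 and 12.5 CPM in the F10-deleted samples, against 0.461, 0 and 0 CPM in the F10-intact samples (adjusted p = 0.0868 by edgeR). Tpm1, a tropomyosin of striated and smooth muscle, had 737, 756 and 750.0 CPM against 581, 504 and 388 CPM, with a log2 fold change at 0.61 ± 0.18 (SE, adjusted p = 0.27 by edgeR). Tpm4, a tropomyosin of non-muscle cells, was at 0.48 and Hspb6, a small heat shock protein of muscle, at 0.94 (adjusted p = 0.275 and 0.287 by edgeR). None passed. The groups did not overlap for any of these 4, which were named for their small p. That held for 7 of the 40 genes of the list, and for 16.7% of all genes tested.

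Ion channels and relaxants of smooth muscle gave the same picture. Of 26 genes of calcium handling, channels and relaxation and calcium-sensitisation pathways, edgeR called 0 (2 higher and 1 lower at an unadjusted p under 0.05), DESeq2 0 and limma-voom 0, with a median of 0.15. Kcnma1, the large-conductance potassium channel that relaxes smooth muscle, had 56.8, 71.0 and 62.0 CPM in the F10-deleted samples, against 73.9, 108 and 174 CPM in the F10-intact samples. It was highest in F10-intact sample 4, where the contractile genes were lowest, and its log2 fold change was -0.91 ± 0.29 (SE, adjusted p = 0.323 by edgeR). Ano1, a calcium-activated chloride channel also made by epithelia, was at 0.50 ± 0.18 (adjusted p = 0.363 by edgeR).

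Receptors that trigger contraction were sparse in all tumours. Of 17 listed, 13 passed the filter on low counts, and edgeR called 0 (0 higher and 3 lower at an unadjusted p under 0.05), with DESeq2 and limma-voom also at 0 and a median of 0.31. Those 3, Chrm3, Adra1a and Adra1d, are named for their small p, while 8 of the 13 had a log2 fold change above 0. Chrm3, the M3 acetylcholine receptor, averaged 7.81 ± 1.18 CPM in the F10-deleted samples and 14.8 ± 4.27 CPM in the F10-intact samples (SD, n = 3 each) and was highest in F10-intact sample 4, at 19.7 CPM, with a log2 fold change at -0.92 ± 0.26 (SE, adjusted p = 0.265 by edgeR). Adra1a, the alpha-1A adrenoceptor targeted by drugs for prostate enlargement, had 6.30, 4.14 and 4.26 CPM in the F10-deleted samples, against 8.12, 7.71 and 8.61 CPM in the F10-intact samples, at -0.73 ± 0.27 (adjusted p = 0.366 by edgeR). Adra1d was at -1.54 ± 0.58 (adjusted p = 0.385 by edgeR). For Chrm3 and Adra1a the groups did not overlap, while for Adra1d they did. Groups were without overlap for 3 of the 13 receptors, and for 16.7% of all genes tested. Neither Chrm3 nor Adra1a was lowest in F10-intact sample 4, unlike the 10 contractile genes.

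Regulators of the contractile state were also tested. Of 27 listed, 25 were tested and edgeR called 0 (5 higher and 1 lower at an unadjusted p under 0.05), DESeq2 2 and limma-voom 0. Their median log2 fold change was 0.29. The groups did not overlap for 8 of the 25, where that held for 16.7% of all genes tested. Mef2c, a transcription factor of muscle and of blood and endothelial cells, had 34.2, 24.1 and 62.8 CPM in the F10-deleted samples, against 15.6, 14.1 and 14.9 CPM in the F10-intact samples, at 1.44 ± 0.33 (SE, adjusted p = 0.184 by edgeR). Elk3, a ternary complex factor that shares serum response factor with myocardin, was at 0.50 ± 0.12 (adjusted p = 0.195 by edgeR), and Tbx18, a factor of mural cells and stroma, at 2.01 ± 0.51 (adjusted p = 0.205 by edgeR). Of the 15 genes linked to the matrix-making state that smooth muscle cells and fibroblasts share, edgeR called 0 (6 higher and 0 lower at an unadjusted p under 0.05), DESeq2 4 and limma-voom 0, with a median of 0.33. Groups were without overlap for 7 of these 15, beside the same 16.7% of all genes. An unadjusted p under 0.05 was reached by 10.9% of all genes, and DESeq2 called 2.75%. Fn1 and Tnc, matrix proteins, were at 1.03 and 1.10 (adjusted p = 0.0758 and 0.0846 by edgeR).

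Markers of neighbouring cells showed which of them shared the sample pattern. The pericyte list had 10 of 12 genes tested, 0 called by edgeR (0 at an unadjusted p under 0.05 in either direction), DESeq2 or limma-voom, and a median log2 fold change of 0.33. Rgs5, a regulator of G-protein signalling in pericytes, had 182, 264 and 178 CPM in the F10-deleted samples, against 124, 168 and 44.6 CPM in the F10-intact samples (adjusted p = 0.533 by edgeR), and Notch3, the mural cell Notch receptor, was at 0.61 ± 0.27 (SE, adjusted p = 0.462 by edgeR). Relative to the 6-sample mean, the pericyte list was at 0.36, 0.22 and 0.08 (log2) in F10-deleted samples 1, 3 and 4, against 0.26, -0.06 and -0.86 in the F10-intact samples. It was therefore lowest in sample 4 of each group, as the contractile genes were, although not below the 6-sample mean in F10-deleted sample 4. Pearson's r with the average of the contractile genes had a median of 0.78 over the pericyte genes and 0.79 over the endothelial genes. The same median was 0.82 over the nerve and glia genes, 0.37 over the epithelial, -0.06 over the fibroblast and -0.61 over the leukocyte genes. Over all genes ranked that median was 0.03. The endothelial list was at 0.54, 0.18 and 0.0042 in F10-deleted samples, against 0.30, -0.29 and -0.73 in the F10-intact samples, and of its 11 genes edgeR called 0 (3 higher and 0 lower at an unadjusted p under 0.05), DESeq2 0 and limma-voom 0, with a median of 0.61. The fibroblast list lay between 0.08 and 0.24 in F10-deleted and between -0.26 and -0.12 in F10-intact samples, without overlap. Of its 14 genes edgeR called 0 (4 higher and 0 lower at an unadjusted p under 0.05), DESeq2 4 and limma-voom 0, with a median log2 fold change of 0.32, and Col1a2, a collagen I chain, was at 0.89 ± 0.13 (adjusted p = 0.0846 by edgeR). The mean of the epithelial list stayed within 0.12 of the 6-sample mean, with differences in both directions among its 13 genes: edgeR called 0 (3 higher and 1 lower at an unadjusted p under 0.05), DESeq2 1 and limma-voom 0. What these lists contribute to the contractile values was not tested.

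**Figure D5:**
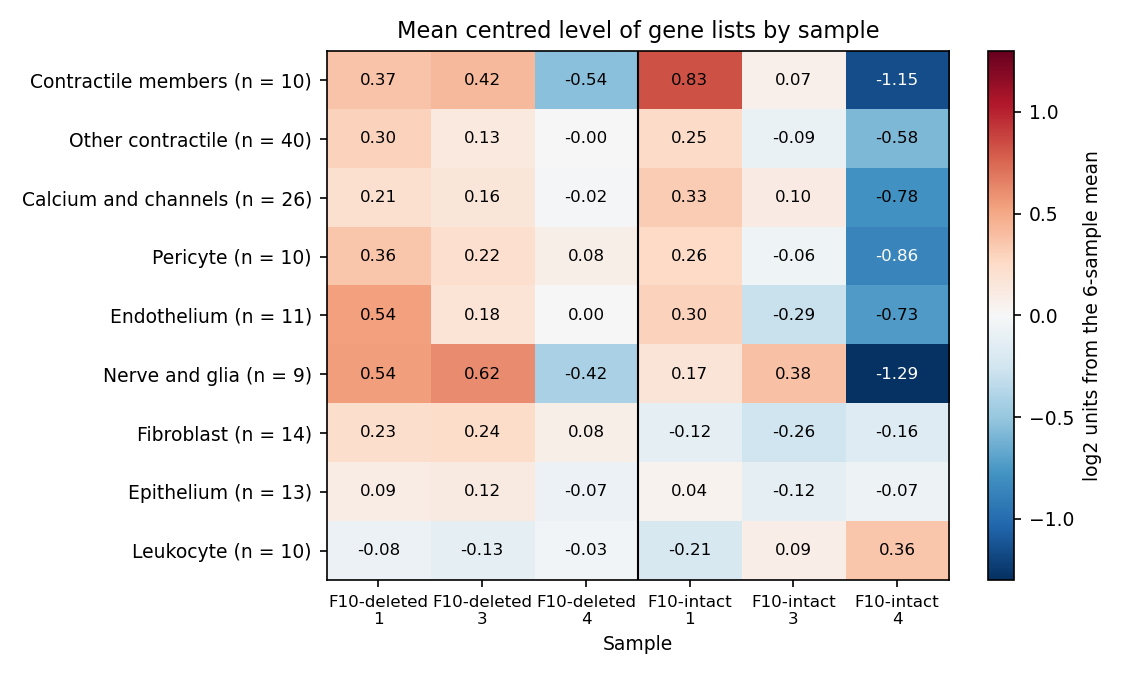
Mean level of each gene list in each sample, in log2 units from the mean of the 6 samples (n is the number of genes tested per list). Of the lists drawn, the contractile genes span the widest range, from 0.83 in F10-intact sample 1 to -1.15 in F10-intact sample 4, while the mean of the epithelial row stays near 0.

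Across 15592 genes with a mean of at least 1 CPM, the 8 whose levels followed the average of the 10 contractile genes most closely over the 6 samples were Stac, Myl9, Eif6, Castor1, Slc25a14, Inf2, Tmem109 and Zdhhc7, with Pearson's r between 0.98 and 1.00. Stac, an adaptor of voltage-gated calcium channels, had 3.05, 3.55 and 1.02 CPM in F10-deleted samples 1, 3 and 4, against 5.08, 2.23 and 0.415 CPM in the F10-intact samples. Inf2, a formin that builds actin filaments, had 38.1, 34.7 and 17.9 CPM against 44.4, 23.9 and 9.85 CPM. Only Myl9 of these 8 was on the lists of smooth muscle genes. The 3 genes with the most opposite pattern were Lilr4b, an inhibitory receptor of myeloid cells, Phospho2 and Slco4c1, an organic anion transporter, with r of -0.9996, -0.9979 and -0.9969. Lilr4b had 19.4, 19.2 and 32.1 CPM in the F10-deleted samples, against 15.8, 23.1 and 44.0 CPM in the F10-intact samples, highest where the contractile genes were lowest. With 6 samples and this many genes, such values describe these libraries and carry no p.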

How the data were processed

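Poly-A RNA of whole tumours was made into stranded libraries and sequenced as single reads (120 bases), as the labels' protocols state. Raw counts per Ensembl gene were deposited in 1 table; STAR 2.7.10a, GRCm38 and DESeq2 (no version or role) are named in the submitters' processing notes. How reads were counted, with which annotation and whether by strand, is not given in the sources used here; reads of overlapping antisense genes cannot be assigned with certainty. Symbols, coordinates and exon lengths came from GENCODE M21 (GRCm38), which matched 21605 of 21718 identifiers, and promoter sequences from RefSeq (GRCm38.p6).

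The main test was edgeR 4.0.16 (R 4.3.3) quasi-likelihood with TMM factors, a robust fit and filterByExpr at a minimum count of 10, leaving 15963 genes, with Benjamini-Hochberg adjustment at 0.05. SEs and 95% intervals are Wald-type on the quasi-likelihood scale. F10 was fitted without the filter. Ratios used a pseudocount of 0.5 and intervals cover the spread between samples. DESeq2 1.42.0 and limma-voom 3.58.1, other scalings and filters, the replicate block and left-out samples were alternatives. On counts simulated from these samples over 15963 genes, edgeR recovered 37 of 100 genes at a 2-fold and 89 of 100 at a 4-fold change, with 1 false call. The simulation drew genes at random and gave each the spread typical of its abundance. The 10 contractile genes varied more, with a median within-group SD of 0.84 log2 units beside 0.26 over all genes tested. These rates therefore do not give the recovery of the contractile genes, which was not simulated.

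Deviations from the group means correlated between same-numbered samples, at 0.372, 0.14 and 0.186 for numbers 1, 3 and 4. All exceed 0.1, so same-numbered samples may be paired, although the labels name no shared animal or day. The main test and the permutation tests of the ratios took the samples as unpaired, and their values ignore any pairing. The replicate block, an alternative fit, and the sign-flip test used the numbers as pairs. With the block, 8 contractile genes had a log2 fold change above 0, against 5 in the main test. The edgeR adjusted p of Des was 0.339 with the block and 0.826 in the main test. Same-group samples differed beyond sampling noise, with a chi-square per degree of freedom from 22.3 to 77.5.

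The 10 genes and the lists were chosen with earlier results of these data known. Genes named from lists were up to 4 with the smallest edgeR p, besides the actins and the 8 most and 3 least like genes; others are marked. Some genes that this rule names, and a few others, are not reported here. The lists of leukocyte and nerve genes are given among the other observations, apart from their correlation with the contractile genes.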

Additional observations from a re-analysis of the deposited data

How the results depend on the processing

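Over 17 alternative settings the 10 contractile genes gave 168 log2 fold changes, none past the threshold (lowest adjusted p = 0.339, edgeR with the replicate block), and 34 had the other sign. The causes were not tested. Acta2 was at 0.0071 with RLE scaling, 0.022 with TMM without the 50 most abundant genes, 0.011 with DESeq2, 0.013 with no filter and 0.0086 with at least 1 CPM in 3 samples. With limma-voom Acta2, Cnn1, Mylk and Srf were at 0.15, 0.12, 0.22 and -0.029, and 8 of 10 contractile genes were above 0. With the replicate block Acta2, Cnn1 and Mylk were at 0.14, 0.13 and 0.20, 8 of 10 were above 0, and no contractile gene gained or lost a call. In alternatives added after seeing the data, leaving out both number 4 samples put Lmod1 at -0.049 and Synpo2 at -0.12, with 3 of 10 above 0 and 1 gene without overlap, and leaving out both number 1 samples put Acta2, Tagln, Cnn1, Mylk and Srf at 0.45, 0.044, 0.52, 0.46 and -0.16, with 9 of 10 above 0.

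Genes called higher and lower, 7 and 0 in the main test, were 371 and 121 with DESeq2, which in the simulation made 14 false calls of 146. They were 2 higher with limma-voom and with the CPM filter, 3 with a non-robust fit, 1 higher and 1 lower with the replicate block, 84 and 1 at an adjusted p of 0.1, 1 higher without both number 4 samples and 4 higher without both number 1 samples. DESeq2 called 2 further contractile genes, 2 regulators, 4 matrix-state, 4 fibroblast, 17 striated and 1 epithelial gene. An adjusted p of 0.1 gave 1 further contractile, 3 matrix-state, 2 fibroblast and 5 striated genes, and no filter gave 1 matrix-state gene. Of the 2 striated calls, 1 was left with a non-robust fit, and 0 with limma-voom, the CPM filter, the replicate block or without both number 4 samples.

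Leaving out 1 sample at a time gave log2 fold changes of -0.36 to 0.52 for Acta2, -0.31 to 0.66 for Myh11, -0.58 to 0.18 for Tagln, -0.53 to 0.69 for Cnn1, 0.02 to 0.825 for Des, -0.22 to 1.03 for Actg2, -0.49 to 0.59 for Mylk, -0.31 to 0.58 for Lmod1, -0.28 to 0.74 for Synpo2, -1.05 to 0.23 for Myocd, -0.61 to 1.01 for P2rx1, -0.35 to 0.36 for Srf, and a median of -0.34 to 0.62 with 2 to 10 genes above 0 and 0 to 1 without overlap. The ratio of Actg2 to Acta2 differed by -0.095 to 0.586 and that of Des to Myh11 by 0.036 to 0.405. Calls ranged over 0 to 56 genes higher and 0 to 16 lower, with 0 to 1 further contractile, 0 to 3 matrix-state, 0 to 2 fibroblast and 0 to 12 striated genes, the highest without F10-intact sample 1. Low counts limit the values of Myocd and F10, with at most 26 and 17 counts in a library.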

Other observations

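The mean of the nerve and glia list was lowest in sample 4 of each group, as the contractile genes were. By edgeR 0 of 9 passed (1 higher and 0 lower at an unadjusted p under 0.05, 0 with DESeq2 and 0 with limma-voom). Relative to the 6-sample mean the list was at 0.54, 0.62 and -0.42 log2 units in the F10-deleted samples, against 0.17, 0.38 and -1.29 in the F10-intact samples. The mean of the leukocyte list ran the other way in the F10-intact group. It was at -0.08, -0.13 and -0.03 in the F10-deleted samples, against -0.21, 0.09 and 0.36 in the F10-intact samples. Of its 10 genes, 0 were called by edgeR (0 higher and 1 lower at an unadjusted p under 0.05), DESeq2 or limma-voom, and 3 had a log2 fold change above 0. Not all followed the mean: in F10-intact samples 1, 3 and 4, Cd3e had 7.01, 5.91 and 5.60 CPM and Cd79a 3.32, 2.14 and 2.38 CPM. S100a8, a neutrophil calcium-binding protein, had 21.7, 27.2 and 32.2 CPM in the F10-deleted samples, against 26.7, 46.5 and 62.9 CPM in the F10-intact samples (log2 fold change -0.75, adjusted p = 0.44 by edgeR).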
